A study of Mus musculus with 12 samples.

Results

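The mRNAs of 10 microRNA pathway genes were followed through 12 RNA-seq libraries of E12.5 mouse limb buds. These genes were taken by gene name from a deposited table of 54532 genes, of which 22046 were protein-coding, and all 10 of 10 were present. They are the processing genes Drosha, Dgcr8 and Dicer1, the Argonaute genes Ago1, Ago2, Ago3 and Ago4, and the TNRC6 genes Tnrc6a, Tnrc6b and Tnrc6c. The libraries form 4 groups of 3, which the labels call biological replicates: input and polysome RNA from control limb buds (cHet) and from knockout limb buds (cKO). Per the labels, cHet carried 1 wild-type and 1 floxed Mettl14 allele and cKO carried both alleles floxed, so both groups share at least 1 floxed allele. Mettl14 encodes a subunit of the enzyme that writes N6-methyladenosine (m6A) on RNA. The Cre driver, the deleted exons and the number of embryos per replicate are not given in the sources used here. Input is RNA of the cytoplasmic lysate, and polysome is RNA of the sucrose gradient fractions that hold mRNAs loaded with ribosomes.

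MicroRNAs are made in steps. In the nucleus, Drosha, an RNase III enzyme, and its RNA-binding partner Dgcr8 cut a hairpin out of the primary transcript, and in the cytoplasm Dicer1, a second RNase III enzyme, trims it to a short duplex. An Argonaute protein takes up 1 strand and pairs its seed with target mRNAs, and a TNRC6 protein (also called GW182) bridges the Argonaute to deadenylases that shorten the poly(A) tail. Ago2 is the Argonaute known to slice a fully paired target. Loss of Dicer1 in limb mesenchyme is known to give small limbs, and let-7 is an abundant microRNA family of differentiating tissues. The libraries measured mRNAs of this machinery, not its proteins and not mature microRNAs.

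Sequences of 2 kinds bear on these genes, and the first is the one tied to Mettl14. The m6A writer is known to act in short contexts of which GGACT is a common form, often near the stop codon. GGACT was searched on the sense strand of 1 GENCODE M21 coding transcript per gene (mm10), that with the longest coding sequence. Only occurrences whose surrounding 25 bases lie within 1 exon were considered for display. The closest of them to the stop codon is shown, with GGACT in capitals, for the 5 genes that the results below turn on most.
Dicer1, chr12:104691571-104691595, minus strand, 3'UTR: tgaagcttccGGACTcacaggcggc
Tnrc6c, chr11:117761649-117761673, plus strand, 3'UTR: agtgtgtgagGGACTtaactgtggg
Ago4, chr4:126492941-126492965, minus strand, 3'UTR: actttctaaaGGACTttccaagaag
Ago2, chr15:73111754-73111778, minus strand, coding: agctggagaaGGACTatcagccagg
Dgcr8, chr16:18278433-18278457, minus strand, coding: aaaaaattcaGGACTtgggctgagc

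The A of GGACT lies 10 bases past the stop codon of Dicer1, in its last exon, exon 27. It lies 810 bases past the stop codon of Tnrc6c and 270 bases past that of Ago4. In Ago2 the A of the occurrence shown is 491 bases before the end of the stop codon, and in Dgcr8 it is 945 bases before that end. Dicer1 was the 1 gene of the 10 with GGACT within 200 bases on either side of the end of the stop codon. Of the coding transcripts of all tested genes, 39.96% had it there (11876 transcripts). Per kilobase of mRNA, GGACT was densest in Tnrc6c, with 1.81 occurrences, above 83.5% of coding transcripts, and the median over all was 1.05. A match describes letters and is no measurement of methylation, which was not assayed in these libraries.

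The second kind is microRNA sequence. Dgcr8 holds 2 annotated hairpins in its second exon: miR-3618 in the 5'UTR and miR-1306 in the coding sequence of its transcript. Drosha and Dgcr8 are known to cut hairpins in the Dgcr8 mRNA itself, and for this reason their mature arms are shown (RefSeq, GRCm38.p6, minus strand of chromosome 16), with let-7a, a member of the family whose known targets are described further on. Capitals mark the seed, bases 2 to 8.
miR-3618-5p, chr16:18284602-18284623: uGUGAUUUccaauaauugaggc
miR-3618-3p, chr16:18284562-18284583: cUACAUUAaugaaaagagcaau
miR-1306-5p, chr16:18284288-18284310: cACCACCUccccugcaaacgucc
miR-1306-3p, chr16:18284248-18284268: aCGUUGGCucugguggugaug
let-7a-5p, chr13:48538239-48538260, minus strand: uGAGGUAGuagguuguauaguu

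The complement of the let-7 seed, CTACCTC, was searched on the sense strand of the 3'UTRs. It occurs 3 times in the 3'UTR of Ago2 and once in that of Ago3, and in 9.26% of all 3'UTRs. In the sites shown, from Ago2 and from Ago3, the match is followed by an A, a base known to favour Argonaute binding.
Ago2, chr15:73097976-73097997, minus strand: atgtggatCTACCTCagttaaa
Ago3, chr4:126335034-126335055, minus strand: gccctcacCTACCTCaccaagt

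Both genes have very long 3'UTRs, of 11064 bases in Ago2 and 12742 bases in Ago3, against a median of 972, and a longer sequence holds more matches of any motif.

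What these genes share beyond the pathway is length. Their gene models, the summed exon bases used by the authors, span 5935 bases in Drosha to 23677 in Tnrc6b, where the median of 13610 tested genes is 3894. Drosha lies at the 72.3rd percentile of tested genes and Tnrc6b at the 99.8th. Among coding transcripts, 3'UTR length ranges from 168 bases in Drosha, the 10.9th percentile, to 12742 in Ago3. Exon numbers run from 14 in Dgcr8 to 35 in Drosha, against a median of 9.

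Levels are given as FPKM, a fragment count corrected for the length of the gene model and the depth of the library. The gene model exceeds the coding transcript unequally, with 7696 against 4320 bases in Dgcr8 and 14031 against 13800 in Ago2. The order of levels between genes therefore depends in part on the gene model used. The libraries held 10349912 to 30068823 assigned reads. Differences are on the scale log2(FPKM + 0.1), which understates the change of low genes, and were tested with limma over all genes with an FPKM of at least 1 in at least 3 fitted libraries, a filter that all 10 genes passed in each comparison. A gene counted as changed at a two-sided Benjamini-Hochberg adjusted p under 0.05, and every adjusted p below is limma's. Mettl14, the targeted gene, stood at 4.03 to 4.09 FPKM in cHet input and at 1.26 to 3.32 in cKO input, with no overlap. Its polysome levels overlapped, at 2.83 to 3.07 in cHet and 2.73 to 3.29 in cKO, so each direction given for cKO polysomes is that of the libraries labelled cKO. In a principal component analysis, cKO input replicate 3 and cKO polysome replicate 1 stood apart from their groups. On the second component the former scored -63.0 and the other input libraries 0.493 to 22.5, and on the first the latter scored 3.97 and the other polysome libraries 35.5 to 53.8. Limb mesenchyme markers, all 10 of which reached an FPKM of 1 in at least 1 library, summed to 842 to 1027 FPKM in cHet and 1169 to 1400.4 in cKO input, and to 1570 to 1764 in cHet and 1479 to 2194 in cKO polysome RNA. Summed macrophage markers were 36.5 to 42.0 FPKM in cHet input and 47.2 to 69.5 in cKO input, and 41.7 to 46.0 in cHet and 56.3 to 81.9 in cKO polysome RNA. Epidermis markers summed to 267 to 269 in cHet and 317 to 352 in cKO input, and to 115 to 129 in cHet and 157 to 329 in cKO polysome RNA. Neuron and Schwann markers summed to 34.4 to 36.7 in cHet and 36.1 to 44.7 in cKO input, and to 16.4 to 17.9 in cHet and 20.1 to 35.1 in cKO polysome RNA. Of these, 1 of 8 lay above every cHet input library in all cKO input libraries and 2 lay below. Summed cartilage, endothelium, muscle and erythroid markers overlapped between genotypes in both fractions. By the same measure, 4 of 8 cartilage, 2 of 8 endothelium and 2 of 8 muscle markers lay below in input, and 0 above. For limb mesenchyme, macrophage and epidermis, 6 of 10, 7 of 8 and 4 of 8 lay above, and 0 below. Of all genes, 29.3% did not overlap in input, counting both directions together. No marker of these lists was at 0 in every library, and the part of such cells in the genotype differences below was not tested. In bulk RNA, fewer cells of a type and less RNA per cell cannot be told apart.

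In cHet input, the microRNA genes ran from Drosha, the highest, down a wide range of levels, ending with Ago3 and Ago4. Drosha averaged 27.4 FPKM ± 0.573 and its partner Dgcr8 6.45 ± 0.307 (SD, n = 3 each). Ago2 at 17.0 ± 1.07 and Ago1 at 16.9 ± 0.650 followed Drosha, and their libraries overlapped, so these levels did not differ beyond their spread. Then came Tnrc6a at 10.5 ± 0.450, Dicer1 at 9.17 ± 0.438, Tnrc6c at 7.10 ± 0.463, Dgcr8, and Tnrc6b at 3.66 ± 0.209, each separate from its neighbour in all libraries. Ago4 at 1.33 ± 0.128 and Ago3 at 1.25 ± 0.116 were lowest and overlapped. In cKO input the order was the same apart from Ago1 and Ago2, which exchanged places with overlapping libraries. On polysomes of cHet, Ago1 at 17.0 ± 1.63 overlapped Drosha at 19.6 ± 1.60, while Ago2 at 10.1 ± 0.805 was separate from both.

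**Figure D1:**
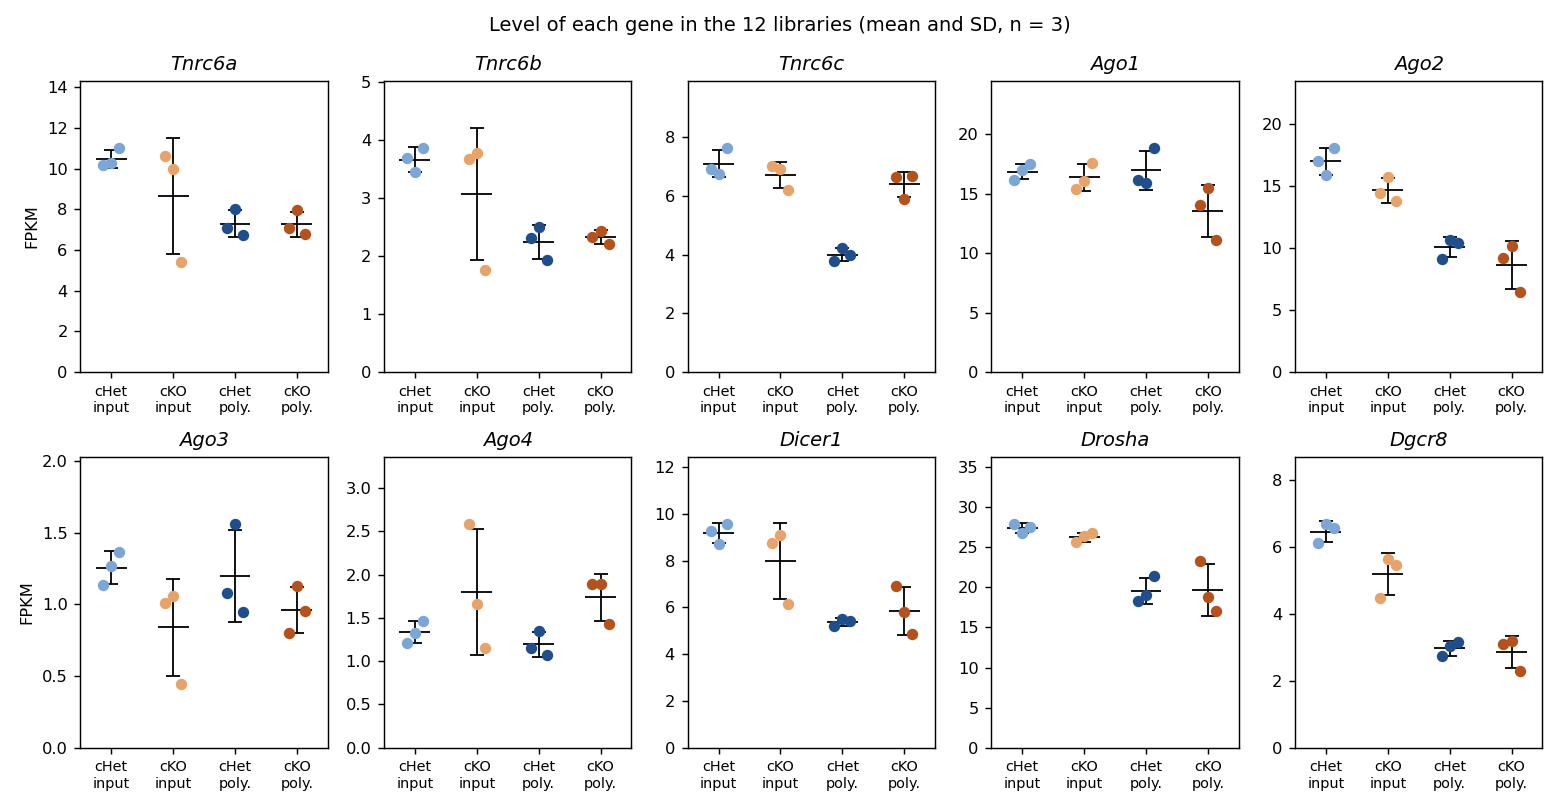
Level of each gene, in FPKM, in the 12 libraries. Points are libraries, horizontal lines the group mean and bars the SD (n = 3), and each panel has its own axis from 0. Tnrc6c stands at 3.77 to 4.24 in cHet polysome RNA and at 5.91 to 6.66 in cKO polysome RNA, and cKO input replicate 3, the right point of its group, is low for Tnrc6a, Tnrc6b, Ago3 and Dicer1.

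The first comparison set polysome RNA against input RNA within cHet. Dgcr8, Tnrc6c, Ago2, Dicer1, Drosha and Tnrc6b fell on polysomes, 6 of 10 genes, and none rose. Of all genes tested, 53.2% were called (7242 of 13610) and 25.9% were called lower, so a call in itself does not set these genes apart. The median log2 difference of the 10 genes was -0.61, against 0.02 over all genes tested. Because FPKM is relative within each library, a lower value means a smaller share of polysome RNA than of input RNA, and not fewer ribosomes per mRNA. In all 3 cHet lysates, 7 of the 10 genes had a lower polysome than input value, where 41.4% of all genes did, and in the same 7 the groups did not overlap, as in 37.2% of all genes.

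Among the processing genes, Dgcr8 moved furthest. It had 6.10, 6.68 and 6.56 FPKM in cHet input replicates 1 to 3, and 2.72, 3.03 and 3.16 on cHet polysomes. No polysome library came near an input library. The log2 difference was -1.09 (SE 0.15, adjusted p = 2.28e-04), and the polysome to input ratio was 0.447, 0.454 and 0.481 in the 3 lysates. Dicer1 had 9.25, 8.70 and 9.57 in input and 5.20, 5.50 and 5.42 on polysomes, again with no overlap, a log2 difference of -0.76 (SE 0.17, adjusted p = 0.00269). Drosha had 27.9, 26.8 and 27.5 in input and 18.3, 19.1 and 21.4 on polysomes, where it remained the highest of the 10 genes by mean. Its log2 difference was -0.49 (SE 0.13, adjusted p = 0.00907).

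The Argonaute genes divided. Ago2, the slicing Argonaute, had 17.0, 15.9 and 18.1 FPKM in cHet input and 9.15, 10.7 and 10.4 on polysomes, a log2 difference of -0.75 (SE 0.16, adjusted p = 0.00237). Ago1, close to Ago2 in input, had 16.2, 17.0 and 17.5 in input and 16.2, 15.9 and 18.8 on polysomes. These ranges overlap, and the log2 difference of 0.00 had a 95% interval of -0.30 to 0.31 (adjusted p = 0.982). Ago3 (-0.09, interval -0.74 to 0.56, adjusted p = 0.820) and Ago4 (-0.15, interval -0.70 to 0.40, adjusted p = 0.635) did not pass, and their intervals are wide. Ago1 made up 46.3% ± 1.33 of the summed Argonaute FPKM in cHet input and 57.6% ± 3.31 on polysomes, while Ago2 made up 46.6% ± 1.57 and 34.2% ± 1.72 (SD, n = 3 each). The shares of Ago3 and Ago4 were between 3.04% and 5.30% in each of these libraries. The summed Argonaute level was 36.5 FPKM ± 1.65 in cHet input and 29.4 ± 1.84 on cHet polysomes.

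Of the TNRC6 genes, whose proteins recruit the deadenylases, Tnrc6c and Tnrc6b passed the threshold. Tnrc6c had 6.93, 6.75 and 7.63 FPKM in cHet input and 3.77, 4.24 and 4.003 on polysomes, with no overlap and a log2 difference of -0.81 (SE 0.12, adjusted p = 2.84e-04). Tnrc6b had 3.68, 3.44 and 3.86 in input and 2.31, 2.50 and 1.93 on polysomes, a log2 difference of -0.69 (SE 0.24, adjusted p = 0.0285). That call was lost when any 1 of 5 cHet libraries was left out: input replicate 1 (adjusted p = 0.0694), 2 (0.0533) or 3 (0.0812), or polysome replicate 1 (0.0604) or 3 (0.0953). It was also lost with no filter on low values (adjusted p = 0.0701). Tnrc6a had 10.2, 10.3 and 11.0 in input and 7.09, 8.03 and 6.74 on polysomes. Its groups did not overlap, and its log2 difference of -0.52 (SE 0.21, adjusted p = 0.0543) did not pass. With the lysate as a block, which uses the shared source of each input and polysome pair, Tnrc6a passed (adjusted p = 0.0421). It passed too when a cKO input library was left out, replicate 3 (adjusted p = 0.00115) or replicate 1 (0.0398), since those enter through the shared estimate of spread. The others were both libraries that stood apart left out (adjusted p = 5.33e-04), a filter of FPKM 5 (0.0454) and a pseudocount of 1 (0.04997). In all, Tnrc6a passed in 6 of 22 settings.

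Gene length moved with this comparison. Across the 13610 genes tested, the log2 difference in cHet had a Spearman rho of -0.361 with gene model length, a description across genes within the same libraries. With a loess trend on length removed from each library, an alternative chosen after seeing the data, Dgcr8 alone of the 10 genes remained called, at -0.77 (adjusted p = 0.00229), while 48.7% of all genes were called and 21.9% were called lower. The others of the 6 then had log2 differences of -0.33 for Tnrc6c (adjusted p = 0.0595), -0.27 for Drosha (0.0891), -0.25 for Ago2 (0.233), -0.22 for Dicer1 (0.159) and -0.08 for Tnrc6b (0.640). Thus 5 of the 6 calls were lost.

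**Figure D2:**
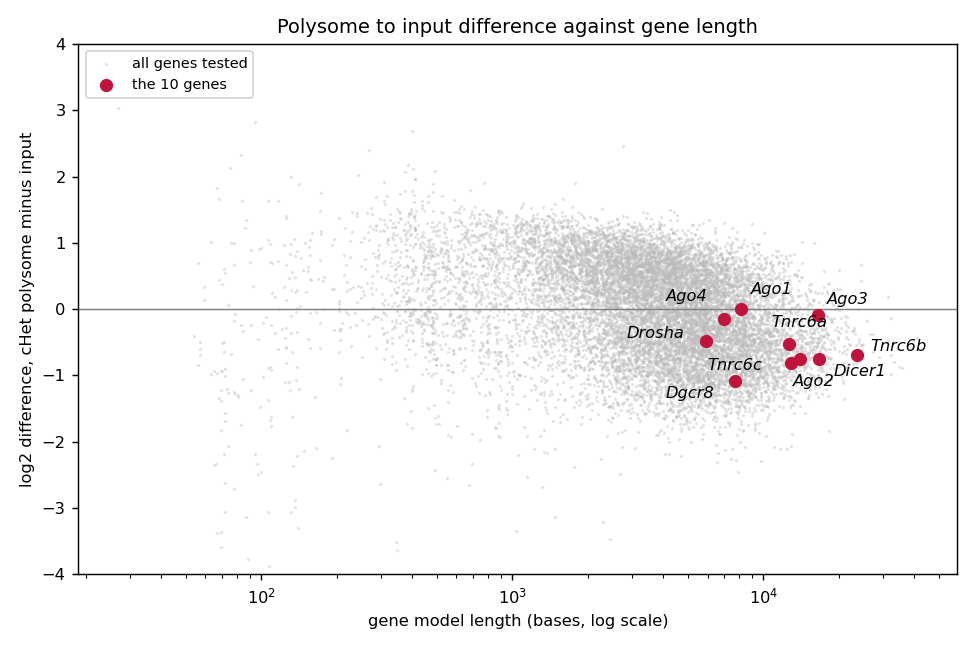
Log2 difference of polysome minus input in cHet (vertical axis) against gene model length in bases (log axis). Grey points are the 13610 genes tested, of which 21 lie beyond the vertical axis, and red points are the 10 genes. The red points lie between 5935 and 23677 bases, right of the median of 3894, and Dgcr8 is the lowest of them at -1.09.

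In cKO, the same comparison called 3 of the 10 genes, all lower on polysomes: Dgcr8, Ago2 and Drosha. Of all genes, 32.5% were called, and 15.6% were called lower. Dgcr8 had 4.47, 5.64 and 5.47 FPKM in cKO input and 3.08, 3.20 and 2.29 on polysomes, a log2 difference of -0.85 (SE 0.15, adjusted p = 0.00227). Ago2 had 14.4, 15.8 and 13.8 in input and 9.18, 10.2 and 6.47 on polysomes, a difference of -0.78 (SE 0.16, adjusted p = 0.00429). Neither gene had any overlap between the fractions. Drosha had 25.7, 26.3 and 26.8 in input and 23.2, 18.7 and 17.1 on polysomes, a log2 difference of -0.43 (SE 0.13, adjusted p = 0.0284). These 3 were also the genes of the 10 whose polysome libraries all lay below their input libraries, as did 16.5% of all genes.

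Drosha did not pass once 1 of 4 cKO libraries was left out, with an adjusted p of 0.0501 or 0.0690 without input replicate 1 or 2, and of 0.0836 or 0.113 without polysome replicate 2 or 3. Nor did it with the length trend removed (0.0580). Dicer1 had 8.73, 9.10 and 6.13 FPKM in cKO input and 6.90, 5.78 and 4.87 on polysomes, overlapping, with a log2 difference of -0.44 (SE 0.17, adjusted p = 0.0633). It passed with the lysate as a block (adjusted p = 0.0316). Its polysome value was below its input value in all 3 cKO lysates, as in 5 of the 10 genes and 22.7% of all genes. Without cKO input replicate 3, in which long genes were low, 6 of the 10 genes were called, Tnrc6a (adjusted p = 0.00622), Tnrc6b (0.00292) and Dicer1 (0.00491) among them, and 42.6% of all genes were called, 20.5% lower. Dicer1 passed also without cKO polysome replicate 1 (adjusted p = 0.0188). With both libraries that stood apart left out, 6 of 10 genes were called, and 59.5% of all genes, 30% lower. Over all genes, the number called was 4424 with every library, 2441 without cKO polysome replicate 3 and 8012 without both libraries that stood apart.

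Tnrc6c, which passed in cHet, lay near 0 in cKO. In cKO it had 7.04, 6.93 and 6.22 FPKM in input and 6.63, 5.91 and 6.66 on polysomes. These fractions overlapped, and the log2 difference was -0.07 (interval -0.33 to 0.19, adjusted p = 0.680), and -0.15 (adjusted p = 0.231) without the libraries that stood apart. Ago1 had -0.28 (adjusted p = 0.141), Ago3 0.24 (0.565) and Ago4 0.01 (0.982) in cKO, none of which passed.

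**Figure D3:**
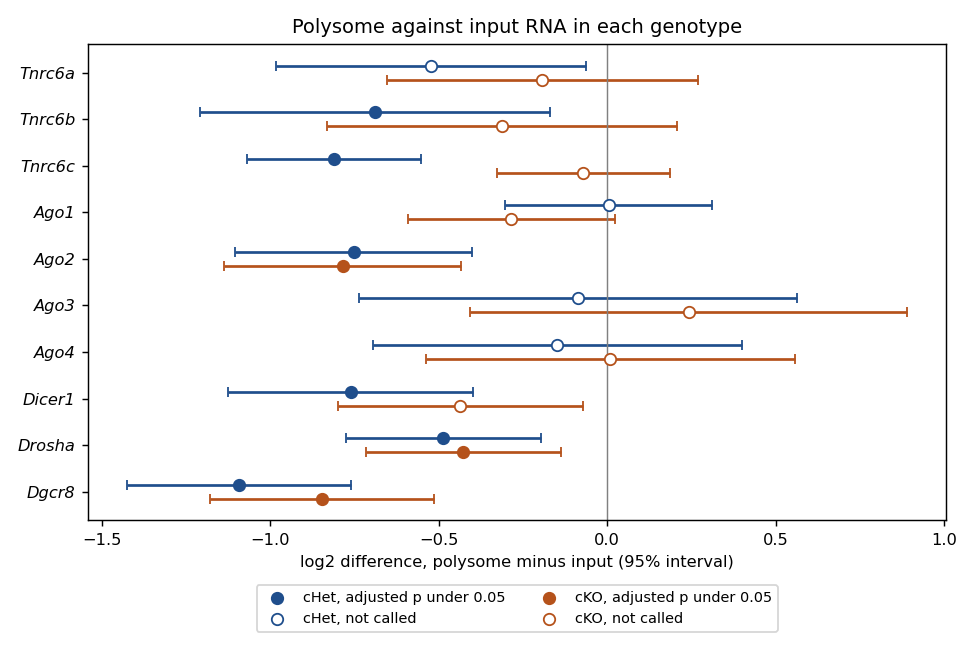
Log2 difference of polysome minus input for each gene in cHet (blue) and cKO (orange), with 95% intervals from the limma fit on 12 libraries. Filled circles passed an adjusted p of 0.05 and open circles did not. Dgcr8, Ago2 and Drosha are filled in both genotypes, Tnrc6c lies at -0.81 in cHet and -0.07 in cKO, and Ago1 lies at 0.00 in cHet.

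The second question was whether loss of Mettl14 changed the level of these mRNAs. In input, none of the 10 genes differed between cKO and cHet at the threshold, nor did any of 12977 genes (0% called by limma, 0 also by voom on recovered reads, and 1943 genes at an unadjusted p under 0.05 by limma). Without cKO input replicate 3, 326 genes were called, and without cKO input replicate 2, 47, none of them among the 10. In 9 of 10 genes the log2 difference was below 0, with a median of -0.22, against -0.01 over all genes tested. The median of the 10 genes was -0.06 without cKO input replicate 3 and -0.02 with the length trend removed.

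Dgcr8 had the smallest p of the 10 genes in input. Its cHet input values of 6.10, 6.68 and 6.56 FPKM lay above its cKO values of 4.47, 5.64 and 5.47, a log2 difference of -0.31 (SE 0.14, interval -0.63 to 0.01, adjusted p = 0.342). Ago2 was also lower in every cKO input library, at 14.4, 15.8 and 13.8 against 17.0, 15.9 and 18.1 in cHet, by -0.21 (SE 0.11, adjusted p = 0.421). Drosha stood at 25.7, 26.3 and 26.8 in cKO and 27.9, 26.8 and 27.5 in cHet, a difference of -0.06. Ago3 had 1.01, 1.06 and 0.446 in cKO and 1.13, 1.26 and 1.37 in cHet, and its log2 difference of -0.60 (adjusted p = 0.428) was -0.25 without cKO input replicate 3. These 4 of 10 genes had no overlap between genotypes in input, all lower in cKO. Of all genes, 29.3% had no overlap, counting both directions together.

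The 6 other genes overlapped in input. Tnrc6a had 10.6, 9.98 and 5.39 FPKM in cKO input, where replicate 3 lay far below the other libraries, and cHet input spanned 10.2 to 11.0. Tnrc6b behaved alike, with 3.67, 3.77 and 1.76 in cKO against 3.44 to 3.86 in cHet. Its log2 difference was -0.32 over all libraries and 0.02 without cKO input replicate 3. Dicer1 had 8.73, 9.10 and 6.13 in cKO and differed by -0.22 (adjusted p = 0.548), or by -0.04 without that replicate. In cKO input replicate 3 the deviations from the mean of the input libraries had a Spearman rho of -0.282 with gene model length across genes, where the other 5 input libraries had 0.0653 to 0.236. Tnrc6c differed by -0.08 and Ago1 by -0.04 in input (adjusted p = 0.752 and 0.851).

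Ago4 went the other way in input, with 2.59, 1.67 and 1.15 FPKM in cKO against 1.21, 1.32 and 1.47 in cHet. The cKO libraries were spread on both sides of the cHet values, and the log2 difference of 0.34 (SE 0.29, adjusted p = 0.571) did not pass.

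On polysomes, the difference was largest for Tnrc6c and no gene passed. Tnrc6c had 3.77, 4.24 and 4.003 FPKM in cHet and 6.63, 5.91 and 6.66 in cKO polysome RNA, a mean of 4.01 ± 0.232 against 6.40 ± 0.430 (SD, n = 3 each). Every cKO library was above every cHet library. The log2 difference was 0.66 (SE 0.13, interval 0.37 to 0.95, adjusted p = 0.0848), and its p ranked 95th among 12877 genes. No gene of 12877 was called (0%, with 0 by voom and 2743 at an unadjusted p under 0.05 by limma).

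With all 12 libraries in the fit, Tnrc6c passed on polysomes (adjusted p = 0.0390), as did 1.35% of all genes, 184 in number. It was the 1 gene of the 10 that did. Leaving out single libraries moved its log2 difference between 0.62 and 0.72, and removal of the length trend gave 0.60 (adjusted p = 0.0916). Over its 16 settings the adjusted p ran from 0.0390 to 0.334, and in 1 of them it was under 0.05. The number of genes called in polysome RNA was 160 without cKO polysome replicate 1, 231 without cKO polysome replicate 2 and 1 without cHet polysome replicate 1, and none of the 10 genes was among them.

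Within the TNRC6 family, the shares moved with it. Tnrc6c made up 28.7%, 28.7% and 31.6% of the summed TNRC6 FPKM on cHet polysomes and 41.4%, 36.2% and 42.6% on cKO polysomes, with no overlap. Tnrc6a made up 53.8% ± 0.584 in cHet and 45.4% ± 2.98 in cKO, and Tnrc6b 16.5% ± 1.20 and 14.5% ± 0.431 (SD, n = 3 each). Tnrc6a itself stood at 7.09, 8.03 and 6.74 FPKM in cHet and 7.07, 7.95 and 6.77 in cKO polysome RNA, nearly the same 3 values, with a log2 difference of 0.00 (interval -0.31 to 0.30). The log2 difference of Tnrc6b was 0.06 (interval -0.30 to 0.41). The summed TNRC6 level was 13.5 FPKM ± 1.09 on cHet polysomes and 16.0 ± 0.328 on cKO polysomes.

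Ago4 and Ago1 also had no overlap on polysomes, in opposite directions. Ago4 had 1.16, 1.35 and 1.08 FPKM in cHet and 1.89, 1.90 and 1.43 in cKO, a log2 difference of 0.50 (SE 0.19, adjusted p = 0.197). Ago1 had 16.2, 15.9 and 18.8 in cHet and 14.0, 15.5 and 11.1 in cKO, a difference of -0.33 (SE 0.16, adjusted p = 0.273). With Tnrc6c, 2 of 10 genes were higher in cKO without overlap, where 17.9% of all genes were, and Ago1 was the 1 gene lower, where 13.5% of all genes were. Ago4 made up 4.20%, 4.59% and 3.44% of the summed Argonaute FPKM on cHet polysomes and 7.30%, 6.61% and 7.15% on cKO polysomes. These shares do not overlap.

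The other Argonaute and processing genes overlapped on polysomes. Ago2 differed by -0.24 (interval -0.67 to 0.18), with cKO replicate 3 at 6.47 FPKM below all other polysome libraries, and by -0.05 without that library. Ago3 differed by -0.28 (interval -0.84 to 0.29). Dicer1 had 0.11, Drosha 0.00 and Dgcr8 -0.07, with adjusted p-values of 0.702, 0.996 and 0.832. The intervals of Dicer1, Drosha and Dgcr8 reached from -0.45 at the lowest to 0.46 at the highest, which are the changes compatible with these libraries.

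**Figure D4:**
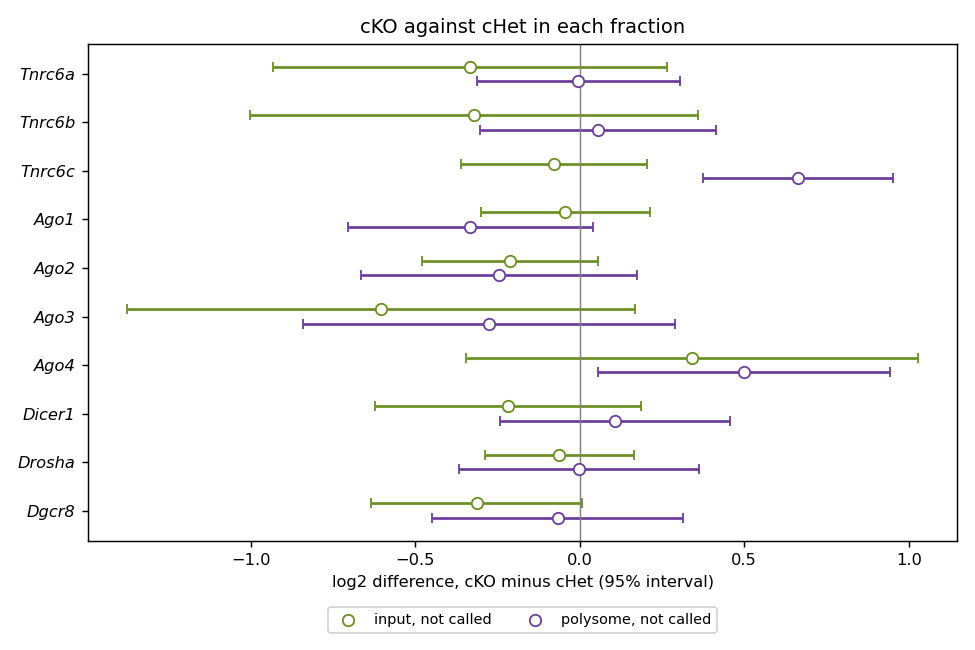
Log2 difference of cKO minus cHet for each gene in input (green) and in polysome RNA (purple), with 95% intervals from limma on the 6 libraries of each fraction. All circles are open because no difference passed an adjusted p of 0.05. Tnrc6c on polysomes lies at 0.66 with an interval from 0.37 to 0.95, and the widest interval is that of Ago3 in input.

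The third question was whether the polysome to input ratio differed between genotypes, which limma tested as an interaction on 12 libraries. None of the 10 genes and none of 13610 genes passed (0% called, 0 by voom, and 638 genes at an unadjusted p under 0.05 by limma). Tnrc6c had a difference of log2 ratios of 0.74 (SE 0.17, interval 0.38 to 1.10, adjusted p = 0.790), and its p ranked 9th among them. Its polysome to input ratio was 0.544, 0.628 and 0.525 in the cHet lysates and 0.943, 0.853 and 1.07 in the cKO lysates. Every cKO lysate lay above every cHet lysate, with an exact two-sided permutation p = 0.1, the smallest that 3 against 3 allows. Without the libraries that stood apart the difference was 0.66 (adjusted p = 0.640), and with the length trend removed it was 0.51 (adjusted p = 0.791).

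Dicer1 was the other gene whose lysates did not overlap. Its ratio was 0.561, 0.632 and 0.566 in cHet and 0.790, 0.635 and 0.794 in cKO, with replicate 2 of both genotypes almost equal. The log2 difference of ratios was 0.32 (SE 0.24, adjusted p = 0.790), and it was 0.02 without the libraries that stood apart. Thus 2 of 10 genes had higher ratios in every cKO lysate, where 8.68% of all genes did, and none had lower ones, where 9.72% did. In 8 of 10 genes the interaction was above 0, with a median of 0.29 against 0.02 over all genes. That median was 0.03 without the 2 libraries that stood apart and 0.06 with the length trend removed, and the interaction had a Spearman rho of 0.316 with gene model length across genes.

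Drosha and Ago2 had the smallest interactions, 0.06 (interval -0.35 to 0.47) and -0.03 (interval -0.53 to 0.47). The ratio of Dgcr8 was 0.690, 0.566 and 0.420 in the cKO lysates, on both sides of the narrow cHet range of 0.447 to 0.481. For Ago1 the ratio was 0.999, 0.936 and 1.08 in cHet and 0.908, 0.962 and 0.631 in cKO, an interaction of -0.29 (adjusted p = 0.790). Tnrc6a, Tnrc6b and Ago3 had their highest ratios, 1.26, 1.25 and 2.14, in cKO lysate 3, whose input library is the one that stood apart. The highest ratios of Tnrc6c (1.07), Ago4 (1.24) and Dicer1 (0.794) were also in that lysate, for Dicer1 little above cKO lysate 1 (0.790). Ago1, Ago2, Drosha and Dgcr8 had their lowest ratios there.

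**Figure D5:**
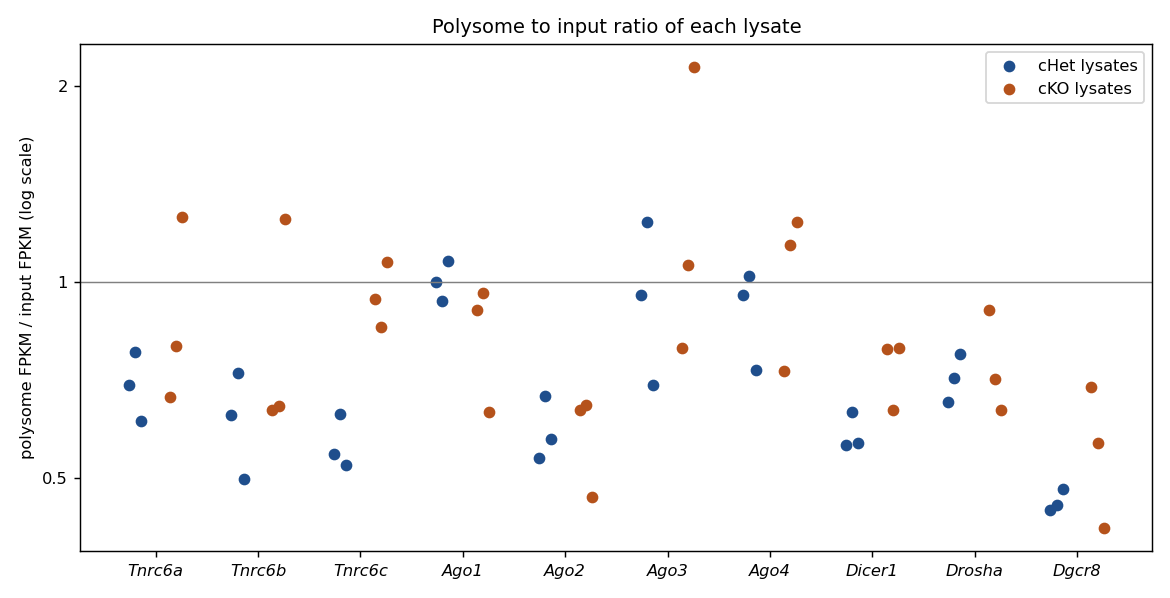
Polysome FPKM divided by input FPKM in each lysate (log axis), for cHet (blue) and cKO (orange), 3 lysates each. The line marks a ratio of 1. The cHet points of Tnrc6c, at 0.525 to 0.628, lie below its cKO points, at 0.853 to 1.07, and the highest point is Ago3 in cKO lysate 3 at 2.14.

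Across the 12 libraries, correlations between members ranged from high to near 0 or negative, both within and across the families. Near 0 on log2 values were, for example, Ago1 and Ago3 (Pearson r 0.0074) and Ago3 and Dgcr8 (0.0147). Some other pairs are given as examples. Tnrc6a and Tnrc6b had a Pearson r of 0.978 on log2 values and of 0.976 after each group's mean was subtracted. Ago2 and Dgcr8 had 0.960 and 0.783, and Drosha and Dgcr8, the partners in the first cut, had 0.934 and 0.599. Ago1 and Tnrc6c had -0.258 and -0.448. These are descriptions over 12 libraries that share the 2 fractions and the libraries that stood apart. By a search of 7524 protein-coding genes, the mean of the Argonaute genes was most like Ncor1 (0.936), Wnk1 (0.920) and Setbp1 (0.918). Among the Argonaute genes themselves, r on log2 values ran from -0.354 (Ago1 and Ago4) to 0.658 (Ago1 and Ago2), so that mean is not a shared profile. The mean of the TNRC6 genes was most like Sf3b1 (0.982), Kat6a (0.981) and Ckap5 (0.976). Within this family, Tnrc6c had an r of 0.489 with Tnrc6a and 0.584 with Tnrc6b on log2 values, so that mean reflects Tnrc6c less. The mean of the processing genes was most like Grb10 (0.989), Gatad2b (0.988) and Map4k4 (0.986). After subtraction of group means the leading genes were Ncoa6 (0.956), Cep55 (0.988) and Fubp3 (0.961).

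The wider pathway was described by 9 lists, chosen with earlier results of these data known, of which 79 genes were tested in the fraction comparisons with each gene counted once. In cHet, 11 rose and 36 fell on polysomes, with a median log2 difference of -0.49 against 0.02 over all genes. In cKO, 6 rose and 27 fell. The counts per list that follow are to be read against all genes tested, of which 53.2% were called in cHet (25.9% lower) and 32.5% in cKO (15.6% lower). No list was tested against another or against the other genes. Between genotypes, no gene of the lists passed in either fraction or in the interaction.

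Of the cofactors of the first cut, 9 of 10 fell in cHet and 6 of 10 in cKO. Khsrp, which binds precursor loops such as that of let-7, fell by 1.12 on the log2 scale (adjusted p = 1.62e-04) in cHet. Median differences of the list were -1.13 in cHet and -0.63 in cKO.

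Export and Dicer partners were mixed in direction. Xpo5, which exports precursors from the nucleus, fell by 1.20 in cHet on the log2 scale (adjusted p = 5.39e-04). Ran, its GTPase partner, rose by 0.47 (adjusted p = 0.0224) and Tarbp2, a partner of Dicer, rose by 0.57 (adjusted p = 0.0259). In all, 3 of 4 rose and 1 fell in cHet, and in cKO none rose and 1 fell. Of the genes that control let-7 precursors, 4 were tested and 1, the exonuclease gene Dis3l2, fell in cHet (log2 -0.93, adjusted p = 0.00108) and in cKO (-0.59, adjusted p = 0.0224). Tut7, which encodes a uridylyltransferase, had -0.44 (adjusted p = 0.117), and Lin28b, whose protein blocks let-7 maturation, had 0.40 (adjusted p = 0.385) in cHet.

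Chaperones that load Argonautes fell in 6 of 9 cases and rose in 2 in cHet, with Hsp90ab1 at -1.49 (adjusted p = 1.03e-04), Hspa8 at -1.38 (1.70e-04) and Stip1 at -1.39 (3.25e-04). In cKO, 3 fell and 2 rose. Deadenylation genes, which act after TNRC6, had 6 lower and 2 higher of 16 in both genotypes. Pabpc1, the poly(A)-binding protein that TNRC6 contacts, was at 192 FPKM ± 6.16 in cHet input and 61.0 ± 3.70 on polysomes (log2 -1.65, adjusted p = 2.06e-05), and its difference in cKO was -1.52 (adjusted p = 3.09e-05). Cnot10, of the CCR4-NOT complex, had -1.30 (adjusted p = 1.66e-04), and Tnks1bp1, which binds that complex, had -0.94 (adjusted p = 6.56e-04) in cHet.

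Decapping and decay genes had 4 of 12 lower in cHet and 3 in cKO, none higher. The decapping scaffold Edc4 had -1.47 (adjusted p = 1.74e-04), the decapping activator Dcp1a -0.69 (6.91e-04) and the helicase Ddx6 -0.49 (0.00478) in cHet. Of 10 Argonaute partners and turnover genes, 4 fell in cHet, and in cKO 3 fell and 1 rose. Zswim8, whose ubiquitin ligase acts in target-directed microRNA decay, had -1.41 (adjusted p = 1.06e-04), the ubiquitin ligase gene Trim32 -1.33 (5.56e-04) and the helicase gene Mov10 -1.05 (4.57e-04).

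Known let-7 targets did not move one way. Of 10 tested, 4 rose and 2 fell in cHet. The RNA-binding protein genes Igf2bp1 (-0.99, adjusted p = 1.74e-04) and Igf2bp3 (-0.77, adjusted p = 8.15e-04) fell, and E2f5, a transcription factor gene, rose by 0.93 (adjusted p = 5.14e-04). Of the list of microRNA host RNAs, 15 were found in the table and 5 were tested. These counts include Dlk1, a coding neighbour of a microRNA cluster and not itself a host. H19, a long noncoding RNA that gives rise to miR-675, averaged 3598 FPKM ± 149 in cHet input and 325 ± 27.6 on polysomes (log2 -3.47, adjusted p = 1.01e-07). Rian (-1.84, adjusted p = 1.54e-04), a noncoding host of small RNAs, and Mir17hg (-0.96, adjusted p = 0.00844), the host of the miR-17 to miR-92 cluster, also fell in cHet.

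Of the loci that overlap those of the 10 genes, 2 had a mean above 1 FPKM. Chrac1, on the opposite strand, overlaps the Ago2 locus over 1711 bases and averaged 25.9 FPKM, and Trmt2a overlaps Dgcr8 on the opposite strand over 825 bases and averaged 9.75. No label or note gives the strandedness, and reads of these stretches cannot be told apart. Another protein-coding model, AC084822.2, lies on the same strand over 4374 bases of the Dgcr8 locus and was listed at 0 in every library.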

How the data were processed

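FPKM values per gene, with gene lengths and coordinates, were computed and deposited by the authors. HISAT2 2.0.5, featureCounts 1.5.0-p3 and mm10 are named in the submitters' processing notes. The kits, per the labels' protocols, were Quick RNA Microprep and NEB Next Ultra II. Ribosomal RNA removal, poly(A) selection and strandedness are not given in the sources used here. FPKM multiplied by gene length and divided by the value of 1 read in each library (0.0320 to 0.0930 FPKM in a gene of 1 kb) was whole within 0.01 for 100% of values above 0, which gave the reads per library. Replicates differed by more than counting noise (chi-square per degree of freedom of 4.93 to 106), and each library counted as 1 sample.

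The fits used limma 3.58.1 (R 4.3.3; empirical Bayes moderation with a trend on mean level) on log2(FPKM + 0.1). Genotypes were compared on the 6 libraries of a fraction, and fractions and the interaction on 12 libraries with 4 group means. The code was tested on simulated data with equal spread in all libraries. Those data held no library that stood apart and no length trend, so they do not show how the fits handle either. P-values set each difference against the spread between these libraries, which the 12-library fits share over all 4 groups. From the design, an input library and its polysome library of equal genotype and number count as 1 lysate (correlation of deviations 0.053 to 0.249), and the lysate block is printed where it changed a call.

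The members, lists, tests and alternatives were chosen with earlier results of these data known. All 10 genes were named whatever their values, with up to 3 genes per list by smallest p over the 5 comparisons, and the 3 most correlated genes per family. Some genes that this rule names are not reported here. From the group-subtracted search, the first of the 3 is printed. Alternatives were other pseudocounts, filters and scalings, voom on recovered reads, blocks and left-out replicates. Removal of the length trend (loess, span 0.5) and leaving out both libraries that stood apart were added after seeing the data. Coding transcripts and their letters came from GENCODE M21, in which all 10 genes have the coordinates of the deposited table, and microRNAs from RefSeq (GRCm38.p6).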

Additional observations from a re-analysis of the deposited data

How the results depend on the processing

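Dgcr8 stayed called in both fraction comparisons under all 22 settings each. Over the log2 differences of the 10 genes, 887 settings kept direction and call, 43 reversed a direction, 16 lost a call and 15 gained one. The cause of these changes was not tested. Counts of genes called are not part of this tally, and some of them moved, as follows. With all 12 libraries fitted, 82 genes were called in input, and 184 genes and 1 of the 10 in polysome RNA. With no filter, 7 genes were called in the interaction. Without the 2 libraries that stood apart, 8012 genes and 6 of the 10 were called in the cKO fraction comparison, and the length trend left 1 of the 10 in cHet.

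No label says whether cHet and cKO libraries of equal replicate number share a source. Their correlations were -0.281 to 0.165, and 2 of 12 libraries were most like their own number, which cannot decide this. A replicate block on these numbers gave 42 genes in polysome RNA, none of the 10 (Tnrc6c adjusted p = 0.103), and 0 in input. The lysate block changed no call but Tnrc6a in cHet and Dicer1 in cKO.

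Reversed values were all of differences that had not passed. Length trend removed: 0.0892 for Tnrc6c and 0.0487 for Ago1 (input), 0.46 for Ago3 and 0.13 for Ago4 (cHet fraction), 0.0527 for Tnrc6a, 0.0018 for Tnrc6b and 0.18 for Tnrc6c (cKO fraction), and -0.0702 for Drosha (interaction). With voom, 0.0051 for Tnrc6a and 0.0054 for Drosha (polysome) and 0.0095 for Ago2 (interaction). Quantile normalization gave -0.0423 for Ago1 and 0.0084 for Ago3 (cHet fraction). Ago4 in the cKO fraction had -0.0005 at a pseudocount of 0.5, -0.0063 at 1 and -0.32 without the 2 libraries, which gave -0.17 for Ago4 and -0.0522 for Drosha in the interaction.

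Leaving out 1 replicate gave 0 to 326 genes in input, 0 to 231 in polysome RNA, 2441 to 6023 genes and 2 to 6 of the 10 in the cKO fraction. Directions reversed within these ranges: Tnrc6b -0.50 to 0.0237 (input). On polysomes: Tnrc6a -0.0698 to 0.0668, Tnrc6b -0.0456 to 0.13, Dicer1 -0.0173 to 0.23, Drosha -0.13 to 0.0948, Dgcr8 -0.15 to 0.079. In the cHet fraction: Ago1 -0.073 to 0.0494, Ago3 -0.28 to 0.0522. In the cKO fraction: Ago3 -0.11 to 0.43, Ago4 -0.26 to 0.29. In the interaction: Ago2 -0.17 to 0.16, Ago3 -0.0235 to 0.52, Ago4 -0.11 to 0.44, Drosha -0.0657 to 0.16. In the shallowest library 1 read in 1 kb was worth 0.0930 FPKM, which bears most on Ago3 and Ago4.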
